A study of Mus musculus with 12 samples.

Results

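Expression of 48 genes of the endoplasmic reticulum (ER) folding machinery, of the unfolded protein response and of its Atf4 arm was examined in lactating mammary glands without butyrophilin 1a1 (Btn1a1), with which the milk-secreting cell coats its fat globules. The 48 genes were taken by name from the table of 11834 genes, and all 48 were found in it. They fall into 8 oxidases and protein disulfide isomerases, 11 chaperones, lectins and cochaperones, 7 genes of ER-associated degradation, 6 stress sensors and transcription factors, 10 genes of the Atf4 arm, and 6 subunits of the translocon and of its associated complex. PolyA RNA was sequenced from 1 gland sample each of 7 Btn1a1-/- mice (KO) and 5 wild-type mice (WT), all C57BL/6 and all in lactation 1. KO replicates 1, 2, 5, 6 and 7 were sampled on day 10, KO replicate 3 on day 8 and KO replicate 4 on day 11. WT replicates 1, 4 and 5 were sampled on day 10, WT replicate 2 on day 9 and WT replicate 3 on day 11. Per the labels, the KO line was kept apart by mating heterozygous pairs, the WT mice were bred in harems, and 2 diets were in use with no record here of which mouse had which. Genotype, breeding line and diet therefore cannot be told apart.

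Casein-secreting cells push most of their new protein through the ER, where it enters by the Sec61 channel, is bound by the chaperone Hspa5 and by lectins, and is locked into shape by disulfide bonds that protein disulfide isomerases make and Ero1 oxidases recharge. When unfolded protein builds up, the sensors Ern1, Atf6 and Eif2ak3 act through Xbp1, cleaved Atf6 and Atf4 to raise chaperones, degradation genes and amino acid supply. Atf4 is controlled mainly at translation and also responds to amino acid shortage, and its targets include Asns, Chac1, Trib3 and Sesn2.

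The promoters of some members carry sequence elements of these pathways. Promoter windows from RefSeq (GRCm38.p6), reaching from 250 bases before to 50 bases after the start site, were given for 40 of the 48 genes, and were searched on both strands. The ER stress element (ERSE), which Atf6 and Xbp1 are known to bind together with NF-Y, was searched as CCAAT and CCACG with any 9 bases between. It lay in the windows of 9 members, 20% of 45 member windows against 0.119% of all 32851 windows. Of the 9 chaperone genes with a window, 6 held it. The sites are shown because the element stands both before Ero1lb, which fell in KO glands, and before chaperones whose values lay above WT without passing the test. They are given 5′ to 3′ in the orientation of the motif, with the match from CCAAT to CCACG in capitals and 6 flanking bases.
Ero1lb, chr13:12565676-12565706, strand -: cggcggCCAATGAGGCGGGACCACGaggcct
Pdia6, chr12:17266485-17266515, strand +: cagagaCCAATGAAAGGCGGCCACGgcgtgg
Hspa5, chr2:34772019-34772049, strand +: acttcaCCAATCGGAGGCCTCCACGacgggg
Hsp90b1, chr10:86705632-86705662, strand -: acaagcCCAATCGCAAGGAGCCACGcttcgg
Hsp90b1, chr10:86705527-86705557, strand +: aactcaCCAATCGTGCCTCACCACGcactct
Calr, chr8:84847069-84847099, strand +: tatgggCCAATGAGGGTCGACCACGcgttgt
Canx, chr11:50325794-50325824, strand -: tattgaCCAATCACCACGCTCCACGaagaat
Dnajc3, chr14:118937821-118937851, strand +: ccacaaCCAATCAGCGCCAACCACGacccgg
Creld2, chr15:88819514-88819544, strand -: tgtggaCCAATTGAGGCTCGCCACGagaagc
Syvn1, chr19:6046526-6046556, strand +: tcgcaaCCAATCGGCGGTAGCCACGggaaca
The ERSE of Ero1lb begins at position -201 from the start site and that of Hspa5 at position -65.

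The variant ERSE-II, ATTGG and CCACG with any 1 base between, lay in the windows of Dnajb11 and Herpud1 (4.44% of member windows, 0.0365% of all windows). Both sites are shown, with the match in capitals, because Dnajb11 rose and Herpud1 had a value below 0.
Dnajb11, chr16:22857846-22857868, strand +: gcggcgATTGGCCCACGcctggc
Herpud1, chr8:94386371-94386393, strand +: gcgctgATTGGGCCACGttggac
The C/EBP-ATF element (CARE), the composite site that Atf4 is known to bind, was searched as TGATG and AA with any 1 base between. It lay in the windows of 6 members, Asns, Chac1, Trib3, Vldlr, Herpud1 and Txndc5 (13.3% of member windows, 3.97% of all windows), of which the first 4 belong to the Atf4 arm, where 9 genes have a window. Those 4 sites are shown with the match in capitals.
Asns, chr6:7693219-7693238, strand -: gccacaTGATGAAActtccc
Vldlr, chr19:27216814-27216833, strand -: gagcgcTGATGCAActattg
Chac1, chr2:119351043-119351062, strand -: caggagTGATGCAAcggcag
Trib3, chr2:152344033-152344052, strand +: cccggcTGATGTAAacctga
The core of the unfolded protein response element, TGACGTG, was found in Hspa5 and Txndc5 (4.44% of member windows, 2.01% of all windows). No 2 of these matches overlapped. Of the members called higher in KO, Sdf2l1, Edem1 and Sec61b have a window and held no match. The windows of the sensors and transcription factors and of the translocon group held none either. A match describes letters in a window and is not evidence of binding, and the absence of one says only that these letters are not there. The members were picked as genes of these pathways, so their shares of matches describe them and are no test.

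For 4 members the bases before the start site are given in full in the direction of transcription, with all matches in capitals: Ero1lb and Asns because they fell, Hspa5 as the most studied ER stress gene, and Hsp90b1 because it holds a pair of ERSE. An ERSE that reads from CGTGG to ATTGG lies on the opposite strand.
Ero1lb, chr13:12565633-12565882, strand +: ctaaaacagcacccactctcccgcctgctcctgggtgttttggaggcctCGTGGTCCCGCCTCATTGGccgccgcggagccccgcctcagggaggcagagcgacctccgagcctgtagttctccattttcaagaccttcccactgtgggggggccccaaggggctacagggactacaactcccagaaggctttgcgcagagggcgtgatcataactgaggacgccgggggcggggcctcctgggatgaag
Asns, chr6:7693210-7693459, strand -: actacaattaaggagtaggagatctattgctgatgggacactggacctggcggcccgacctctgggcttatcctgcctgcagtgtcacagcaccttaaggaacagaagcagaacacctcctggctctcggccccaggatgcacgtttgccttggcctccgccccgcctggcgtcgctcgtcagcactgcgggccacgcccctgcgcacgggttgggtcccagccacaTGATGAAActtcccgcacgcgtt
Hspa5, chr2:34771840-34772089, strand +: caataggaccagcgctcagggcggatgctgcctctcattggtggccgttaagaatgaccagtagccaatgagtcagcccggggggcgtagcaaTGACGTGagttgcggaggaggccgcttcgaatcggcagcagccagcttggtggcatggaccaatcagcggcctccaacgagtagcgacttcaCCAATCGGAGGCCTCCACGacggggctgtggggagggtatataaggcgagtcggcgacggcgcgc
Hsp90b1, chr10:86705445-86705694, strand -: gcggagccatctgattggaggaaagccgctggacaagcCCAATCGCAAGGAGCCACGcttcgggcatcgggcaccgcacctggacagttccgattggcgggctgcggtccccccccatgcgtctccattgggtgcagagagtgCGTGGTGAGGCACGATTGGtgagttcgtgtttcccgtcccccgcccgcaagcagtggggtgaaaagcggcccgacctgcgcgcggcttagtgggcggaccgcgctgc

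**Figure D1:**
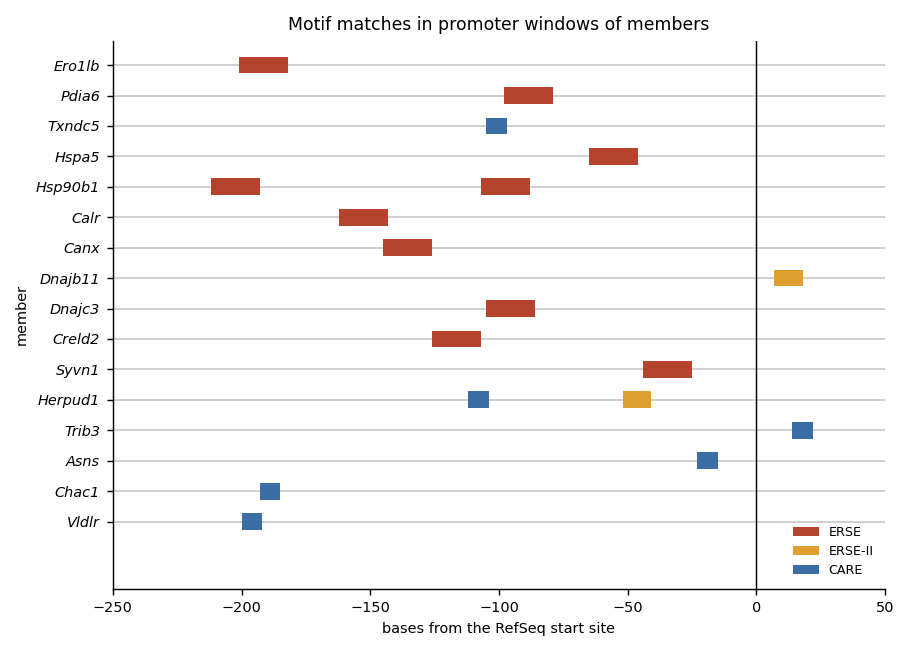
Positions of ERSE, ERSE-II and CARE matches (coloured boxes) in the RefSeq promoter windows of the 16 members that hold one, in bases from the start site. The 2 ERSE of Hsp90b1 begin at positions -212 and -107, and the ERSE-II of Dnajb11 begins 7 bases after the start site.

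The labels held for the targeted gene. Btn1a1 averaged 5.63 ± 0.30 log2 CPM in KO glands (SD, n = 7) and 11.07 ± 0.09 in WT glands (SD, n = 5), a log2 change of -5.43 with an SE of 0.13 (adjusted p = 5.2e-13, limma with Benjamini-Hochberg adjustment). The tissue label held too: 12 secretory luminal markers, caseins among them, summed to between 641423 and 668130 CPM in KO libraries and between 664924 and 666276 CPM in WT libraries, out of 988803 to 988808 CPM per library. The values are quantile-normalized, so a sum of top-ranked genes is nearly fixed. Near-equal sums therefore cannot show that the secretory content of the groups was alike. Of these 12 markers 2 were called higher, Krt8 (log2 change 0.42, adjusted p = 0.0389) and Epcam (0.30, adjusted p = 0.0456), and 0 lower. The call of Krt8 ended without any 1 of 8 libraries (up to 0.0889) and that of Epcam without any 1 of 9 (up to 0.116). Markers of other cells differed between the groups too. Of 10 basal and myoepithelial markers 6 were called higher (summed level 582 to 897 CPM in KO, 517 to 695 CPM in WT), as were 4 of 12 macrophage markers (114 to 220 CPM in KO, 104 to 138 CPM in WT). None of 15 skeletal muscle markers was called (2 had an unadjusted p under 0.05), although their summed level ran from 103 to 1649 CPM in KO and from 70.5 to 475 CPM in WT. In limma 3145 of all 11834 genes had an unadjusted p under 0.05. Single markers were called among adipocyte (1 of 10, higher), endothelial (1 of 9, lower) and fibroblast genes (1 of 9, higher). None of the 3 measured B and plasma cell markers was called (0 with an unadjusted p under 0.05), 7 others of that list have no row in the table, and neither has any of 9 T cell markers. In bulk tissue, fewer cells of a type and less RNA per cell cannot be told apart. The approximate depth was 23.2 M to 34.7 M reads in KO libraries and 17.1 M to 30.4 M reads in WT libraries.

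Single libraries stood apart for these genes. WT replicate 5 was the lowest of the 12 libraries in 28 of the 48 members (58.3%), including all 11 chaperones and 7 of the 8 oxidases and isomerases, while it was the lowest in 9.35% of all genes. KO replicate 4 was the lowest in 5 of the 10 Atf4 arm genes, against 18.5% of all genes, and also had the highest muscle marker level. KO replicate 7 was the highest in 13 members (27.1%, against 4.81% of all genes). Leaving out WT replicate 5 moved the log2 change of 26 of the 48 members by over 1.5 times or across 0. The values without it are given below for those 26 members, for some as a range. Leaving out KO replicate 4 did so in 7 members and leaving out KO replicate 7 in 6, and each of these members had a log2 change between -0.07 and 0.14 in all 12 libraries.

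Of the 48 members 7 were called at an adjusted p under 0.05 (14.6%), against 9.36% of all genes. The members were chosen with earlier results of these data known, so such shares describe them and are no test. Dnajb11, Sdf2l1, Edem1 and Sec61b rose in KO glands (4 of 48, 8.33%, against 4.84% of all genes), and Ero1lb, Asns and Vldlr fell (3 of 48, 6.25%, against 4.52%). The log2 change was above 0 in 32 members and below 0 in 16, with a median of 0.11. Over all genes it was above 0 in 5281 and below 0 in 6553, with a median of -0.03. The number called depended on the libraries. It was 4 when WT replicate 5 or WT replicate 3 was left out, 3 when WT replicate 2 was, and 1, Ero1lb, in the day 10 libraries alone. With the muscle marker level as a covariate Ero1lb and Dnajb11 passed. With the macrophage or the basal marker level as a covariate Ero1lb alone passed. With the macrophage level the log2 changes of the 6 members that lost their call were 0.64 for Dnajb11, 0.69 for Sdf2l1, 0.28 for Edem1, 0.26 for Sec61b, -0.19 for Asns and -0.43 for Vldlr. With the basal level they were 0.46 for Dnajb11, 0.61 for Sdf2l1, 0.34 for Edem1, 0.43 for Sec61b, -0.37 for Asns and -0.27 for Vldlr. Each kept its sign, and Asns with the macrophage level and Vldlr with the basal level moved by over 1.5 times. The genes called in the whole table numbered 7 with the macrophage and 13 with the basal level, against 1108 without a covariate, so these markers and genotype cannot be told apart here.

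**Figure D2:**
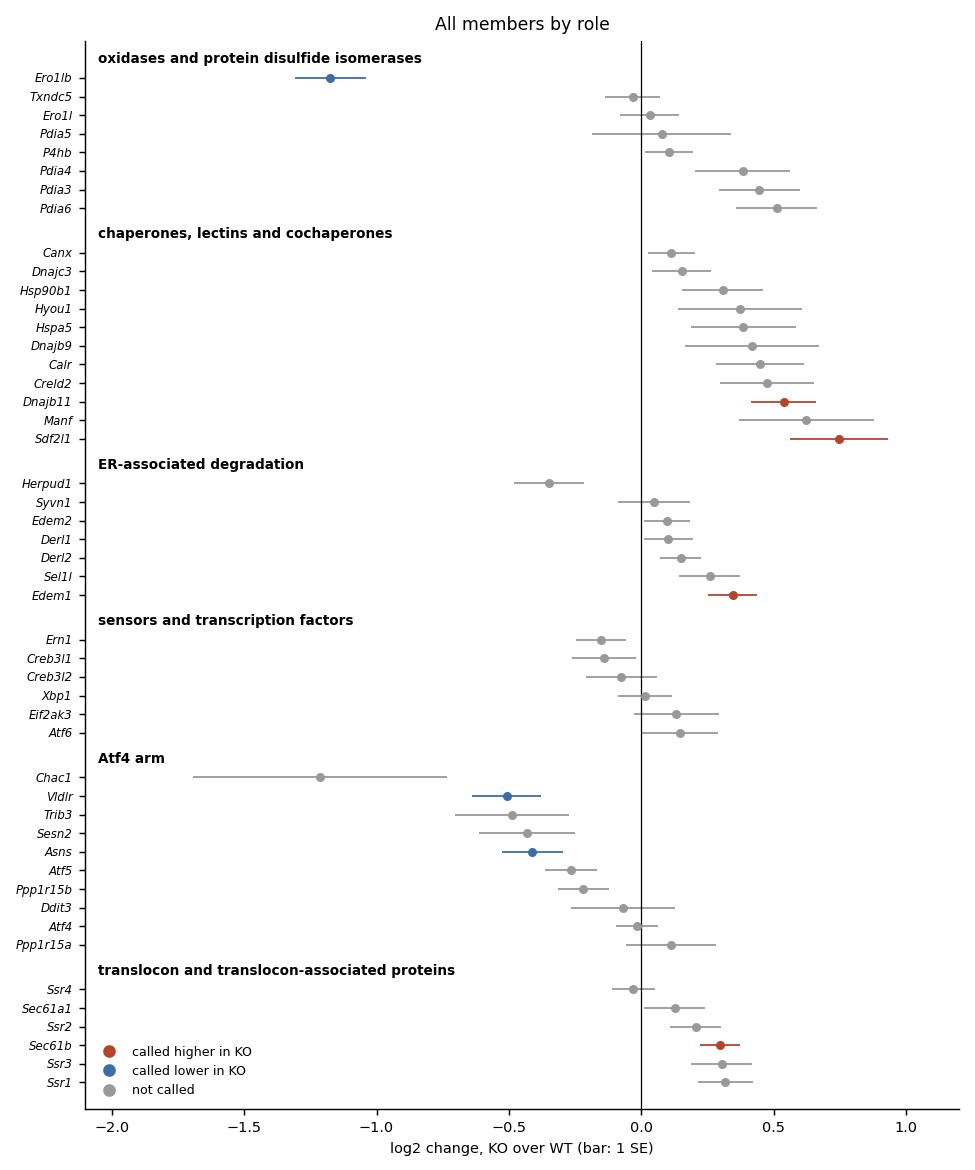
Log2 change of each of the 48 members in KO over WT glands, grouped by role, with bars of 1 SE (7 KO and 5 WT libraries). Red points are called higher and blue points called lower at an adjusted p under 0.05. All 11 chaperones lie right of 0, and 9 of the 10 Atf4 arm genes left of it.

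Ero1lb, the second of the mammalian Ero1 oxidases that reoxidize protein disulfide isomerase, fell furthest of the members called. It measured 2.71 log2 CPM in the lowest KO library, 3.01 in the median one and 3.29 in the highest. WT replicates 1 to 5 held 4.33, 3.93, 3.79, 4.63 and 4.21. The groups did not overlap, with every KO library under every WT library, which was so for 2.74% of all genes. The means were 3.00 ± 0.18 log2 CPM in KO (SD, n = 7) and 4.18 ± 0.33 in WT (SD, n = 5), giving a log2 change of -1.18 at an SE of 0.13 (adjusted p = 0.00044), so that 44.3% of the WT level was measured in KO. The call held in all 27 alternatives, at an adjusted p of up to 0.0499 with the basal marker level as a covariate. The gene lies at chr13:12565818-12609533 (GRCm38), 10.8 Mb from Btn1a1, at chr13:23456984-23465914. Of the other members, Ssr1 (14.5 Mb away) and Txndc5 (15.0 Mb away) lie on the same chromosome, and neither was called.

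Its paralog Ero1l, the broadly expressed and hypoxia-responsive oxidase, did not pass. It measured 5.05 log2 CPM in the lowest KO library, 5.17 in the median one and 5.40 in the highest, and 5.52, 4.99, 5.44, 5.07 and 4.80 in WT replicates 1 to 5. The KO values lay inside the WT range. Its log2 change was 0.03 with a 95% interval of -0.21 to 0.27 (adjusted p = 0.892), and -0.06 without WT replicate 5. Levels were also divided by the merged length of all annotated exons of a gene. Per kilobase of merged exon, WT glands held 2.76 log2 CPM of Ero1l and 1.44 of Ero1lb, and KO glands held 2.79 and 0.27.

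The protein disulfide isomerases, which form and reshuffle disulfide bonds, gave no call in limma at the adjusted threshold. An unadjusted p under 0.05 was found for 2 of them, Pdia6 and Pdia3, and for 3145 of all 11834 genes. Pdia6, which works with Hspa5, stood at 0.51 (log2 change, SE 0.15, adjusted p = 0.0524), and passed without KO replicate 5 (0.0357), KO replicate 6 (0.0455) or WT replicate 1 (0.0413). Without WT replicate 5 it had 0.35 and moved further from a call (0.0908). Pdia3, the isomerase that calreticulin and calnexin recruit to glycoproteins, had 0.45 (SE 0.15, adjusted p = 0.0844), or 0.31 without WT replicate 5 (0.178). Pdia4 had 0.38 (SE 0.18, adjusted p = 0.193), or 0.21 without that library. P4hb, the founding member, stood highest of the 48 genes per kilobase of merged exon (7.36 log2 CPM in KO and 7.26 in WT). Its log2 change was 0.10 (SE 0.09, limma adjusted p = 0.491), or 0.04 without WT replicate 5. Pdia5 and Txndc5 had log2 changes of 0.08 and -0.03, or -0.15 and -0.12 without that library. In this group of 8 genes 0 were called higher and 1 lower (12.5%, against 4.52% of all genes), and the median log2 change was 0.09. Leaving out WT replicate 5 gave -0.01 and leaving out WT replicate 4 gave 0.20.

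The list of 17 other measured oxidoreductases of the secretory pathway gave 2 higher and 3 lower (29.4% called, against 9.36% of all genes). Erp44, which retains Ero1 and other proteins in the early secretory pathway, rose by 0.53 (log2 change, SE 0.10, adjusted p = 0.00806), and Erp29, an ER protein of the isomerase family, rose by 0.42 (SE 0.10, adjusted p = 0.0173). Qsox1, a sulfhydryl oxidase that introduces disulfide bonds on its own, stood at -0.61 (log2 change, SE 0.16, adjusted p = 0.0269). Its call was lost without any 1 of 5 libraries, KO replicate 2 and WT replicates 1, 2, 4 and 5, at an adjusted p of up to 0.0700. The other genes called lower were Prdx4, a peroxiredoxin of the ER, and Vkorc1, the vitamin K epoxide reductase, with calls that single libraries decided. That of Prdx4 (log2 change -0.49) ended without any 1 of KO replicates 1, 2 and 4 and WT replicates 1 to 5, at up to 0.0877, and that of Vkorc1 (-0.35) without any 1 of KO replicates 1 and 2 and WT replicates 1, 2, 3 and 5, at up to 0.0854. Oxidoreductases thus moved in both directions.

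Among the 11 chaperones, lectins and cochaperones 2 rose (18.2%, against 4.84% of all genes), 0 fell and 9 did not pass. All 11 had a log2 change above 0, as had 5281 of all 11834 genes. Dnajb11, a cochaperone that hands unfolded chains to Hspa5, measured 4.81 log2 CPM in the lowest KO library, 5.18 in the median one and 5.39 in the highest. In WT replicates 1 to 5 it was 4.92, 4.63, 4.85, 4.58 and 4.17. In 6 of 7 KO libraries it lay above every WT library. The difference was 0.54 (log2 change, SE 0.12, adjusted p = 0.0169), and the call held without any 1 library but not in day 10 libraries alone (0.0954).

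Sdf2l1, an ER protein that binds Dnajb11 and Hspa5, rose most of the members called. It measured 2.83 log2 CPM in the lowest KO library, 3.50 in the median one and 3.64 in the highest, and 2.87, 2.44, 2.80, 2.79 and 1.97 in WT replicates 1 to 5. In 6 of 7 KO libraries it lay above every WT library. Its log2 change of 0.74 (SE 0.18, adjusted p = 0.0244) lost its call when WT replicate 2 (0.0602) or WT replicate 5 (0.0517) was left out.

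Hspa5, the main ER chaperone and the textbook readout of the unfolded protein response, did not pass. It measured 7.88 log2 CPM in the lowest KO library, 8.31 in the median one and 8.55 in the highest. Levels of 8.36, 7.68, 8.16, 7.90 and 7.06 were found in WT replicates 1 to 5. The groups overlapped, and WT replicate 5 was the lowest of the 12. Its log2 change was 0.38 with a 95% interval of -0.04 to 0.81 (adjusted p = 0.233), and 0.19 without WT replicate 5 (adjusted p = 0.490).

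Manf, a secreted ER stress-induced factor, had the largest value among the chaperones not called, a log2 change of 0.62 (SE 0.26, adjusted p = 0.144). Creld2, another secreted factor induced by ER stress, had 0.47 (SE 0.18, adjusted p = 0.106), the lectin chaperone Calr 0.45 (SE 0.17, adjusted p = 0.104), and Hsp90b1, the ER form of Hsp90, 0.31 (SE 0.15, adjusted p = 0.220). The other 5, Dnajb9, Hyou1, Dnajc3, Canx and Hspa5, had between 0.11 and 0.42. Without WT replicate 5 the log2 change was 0.35 for Manf, 0.29 for Creld2, 0.26 for Calr and 0.17 for Hsp90b1, and between 0.05 and 0.21 for the other 5. The median of the 11 genes was 0.42, against -0.03 over all genes. Leaving out WT replicate 5 gave 0.21, with all 11 still above 0, and leaving out any 1 other library gave between 0.35 and 0.53. The mean deviation of the 11 genes from their WT mean ran from 0.12 to 0.67 log2 CPM in KO libraries and from -0.67 to 0.39 in WT libraries, and 5 of the 7 KO libraries exceeded every WT library.

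Of 17 chaperone genes of the cytosol and mitochondria 1 rose (5.88%, against 4.84% of all genes), 0 fell, and the median log2 change was 0.06. The gene that rose was the small heat shock protein Hspb1 (log2 change 0.57, SE 0.15, adjusted p = 0.0296). The call of Hspb1 ended without any 1 of KO replicates 1, 2 and 7 and WT replicates 1, 2, 4 and 5, at an adjusted p of up to 0.0833. No test compared this list with the ER chaperones.

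**Figure D3:**
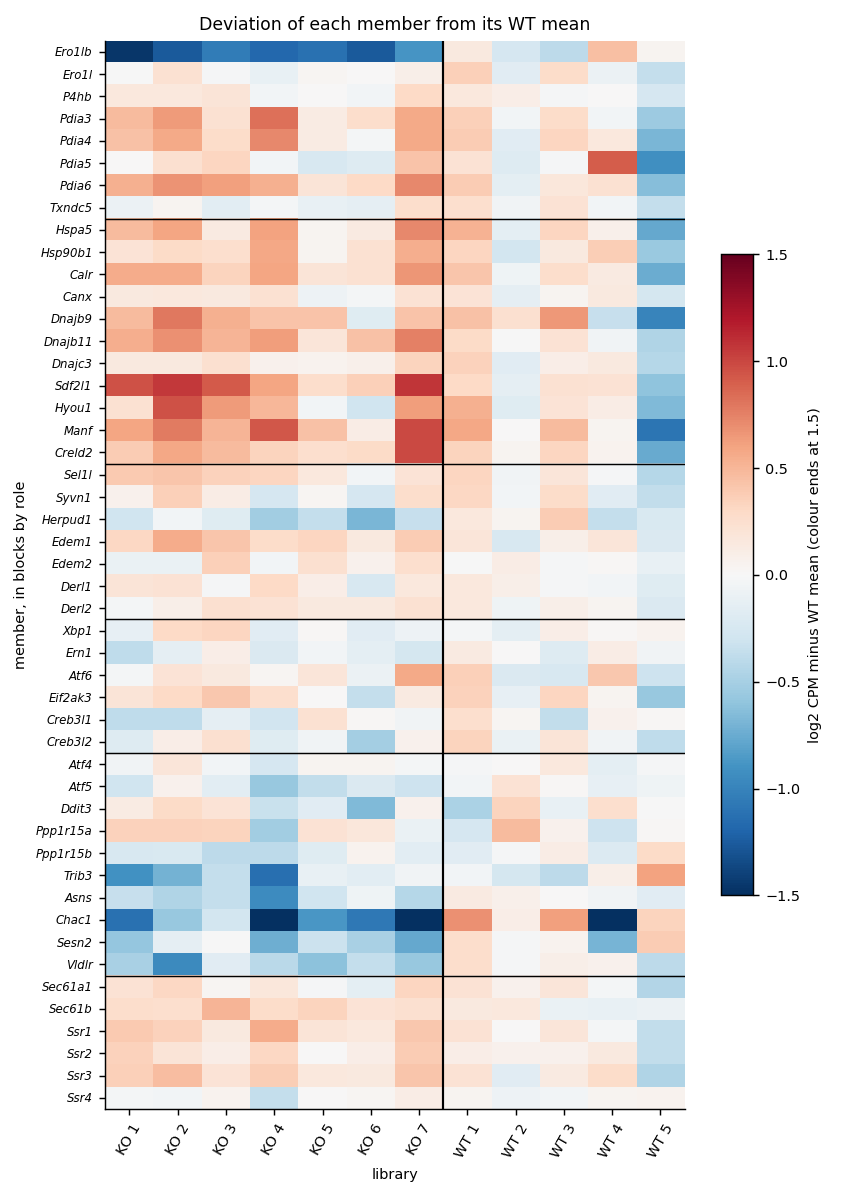
Deviation of each member from its WT mean (log2 CPM, colour) in the 7 KO (left) and 5 WT (right) libraries, in blocks by role. WT replicate 5 is lowest in all 11 chaperones. Values of Chac1 below -1.5 are drawn at the end of the colour scale.

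ER-associated degradation, which returns misfolded chains to the cytosol for the proteasome, gave 1 higher (14.3%, against 4.84% of all genes) and 0 lower of 7. Edem1, a lectin-like factor that directs misfolded glycoproteins to degradation, measured 5.55 log2 CPM in the lowest KO library, 5.73 in the median one and 5.96 in the highest. The WT libraries, replicates 1 to 5, held 5.58, 5.17, 5.50, 5.58 and 5.19, so that 6 of 7 KO libraries lay above all of them. The call at 0.34 (log2 change, SE 0.09, adjusted p = 0.0311) was lost when any of KO replicate 1 (0.0515), KO replicate 2 (0.0600), KO replicate 7 (0.0527), WT replicate 2 (0.0863) or WT replicate 5 (0.0809) was left out.

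Herpud1, a membrane component of the degradation complex, was the member of this group with a value below 0, at -0.35 (SE 0.13, adjusted p = 0.109). Sel1l, the adaptor of the ubiquitin ligase Syvn1, had 0.26 (SE 0.12, adjusted p = 0.169), and Derl2, a channel component, had 0.15 (SE 0.08, adjusted p = 0.236). Without WT replicate 5 these were 0.15 for Sel1l and 0.09 for Derl2. Edem2 had 0.10 (SE 0.09, adjusted p = 0.511), and Syvn1 and Derl1 had 0.05 and 0.10, or -0.04 and 0.06 without WT replicate 5. Of 24 other measured genes of the pathway 0 rose and 2 fell (8.33%, against 4.52% of all genes). These were Os9, a lectin that recognizes trimmed glycans (log2 change -0.25, SE 0.06, adjusted p = 0.0256), and the ubiquitin ligase Rnf5 (-0.32, SE 0.09, adjusted p = 0.0419). The call of Os9 ended without WT replicate 1, 2 or 4 (up to 0.0745), and that of Rnf5 without any 1 of KO replicates 1, 2 and 4 and WT replicates 1 to 4 (up to 0.0995).

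None of the 6 sensors and transcription factors was called by limma, and their median log2 change was -0.03. An unadjusted p under 0.05 was found for 0 of them, and for 3145 of all 11834 genes. Xbp1, the factor whose mRNA Ern1 splices, measured 8.41 log2 CPM in the lowest KO library, 8.49 in the median one and 8.89 in the highest. In WT replicates 1 to 5 it was 8.54, 8.43, 8.68, 8.59 and 8.63. The KO values spread on both sides of the WT range. Its log2 change was 0.01 with a 95% interval of -0.20 to 0.23 (adjusted p = 0.956), and 0.03 without WT replicate 5. Per kilobase of merged exon Xbp1 was second to P4hb among the members, at 6.89 log2 CPM in KO and 6.87 in WT. Spliced and unspliced Xbp1 cannot be separated in a table of gene values.

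The sensor Ern1 stood at -0.15 (log2 change, SE 0.09, adjusted p = 0.318), the sensor Atf6 0.14 (SE 0.14, adjusted p = 0.563), and the eIF2alpha kinase Eif2ak3 0.13 (SE 0.16, adjusted p = 0.636). Without WT replicate 5 Atf6 had 0.07 and Eif2ak3 -0.01. Creb3l1 and Creb3l2, relatives of Atf6 that are cleaved in the Golgi, had -0.14 (SE 0.12, adjusted p = 0.491) and -0.08, the second -0.17 without WT replicate 5. Of 16 other measured regulators of the response 0 rose and 1 fell (6.25%, against 4.52% of all genes). This was Mbtps2, a protease that releases Atf6 (log2 change -0.38, SE 0.10, adjusted p = 0.0268). Its call ended without WT replicate 1, 3 or 4, at up to 0.0699. Of 14 genes for eIF2alpha kinases and for eIF2 or eIF2B subunits 0 rose and 2 fell (14.3%, against 4.52% of all genes). Gcn1l1, a coactivator of the amino acid sensor kinase Eif2ak4, fell (log2 change -0.48, SE 0.10, adjusted p = 0.00925), and Eif2b3, a subunit of the exchange factor eIF2B, had -0.46 (SE 0.12, adjusted p = 0.0249) with a call that ended without WT replicate 2, 4 or 5, at up to 0.0587.

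In the Atf4 arm 0 genes rose, 2 fell (20%, against 4.52% of all genes) and 8 did not pass. The log2 change was below 0 in 9 of the 10 genes, and in 6553 of all 11834 genes. Its median in the arm was -0.34, between -0.36 and -0.27 without any 1 library. Asns, asparagine synthetase, measured 5.42 log2 CPM in the lowest KO library, 6.00 in the median one and 6.28 in the highest. Values of 6.49, 6.43, 6.36, 6.30 and 6.19 were found in WT replicates 1 to 5. In 6 of 7 KO libraries it lay below every WT library. The call at -0.41 (log2 change, SE 0.12, adjusted p = 0.0372) was lost when leaving out any 1 of KO replicates 1, 2 and 7 or WT replicates 1 to 4, at an adjusted p between 0.0566 and 0.0975.

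Vldlr, a lipoprotein receptor that is a known Atf4 target in mouse cells under ER stress, measured 3.07 log2 CPM in the lowest KO library, 3.53 in the median one and 3.85 in the highest. The WT libraries, replicates 1 to 5, held 4.29, 4.00, 4.11, 4.08 and 3.63. WT replicate 5 lay among the KO values, and 5 of 7 KO libraries lay below all WT libraries. Its log2 change of -0.51 (SE 0.13, adjusted p = 0.0250) did not pass when any 1 of WT replicates 1 to 4 was left out, at 0.0744, 0.0528, 0.0568 and 0.0528 in that order.

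Atf4 itself, whose activity is set largely at translation, measured 6.54 log2 CPM in the lowest KO library, 6.77 in the median one and 6.97 in the highest, and 6.78, 6.80, 6.96, 6.65 and 6.78 in WT replicates 1 to 5. The groups overlapped, with a log2 change of -0.02 and a 95% interval of -0.18 to 0.15 (adjusted p = 0.914). Ddit3, the proapoptotic factor CHOP, was low in both groups. It measured 0.21 log2 CPM in the lowest KO library, 0.94 in the median one and 1.16 in the highest, and 0.40, 1.21, 0.76, 1.12 and 0.87 in WT replicates 1 to 5. The groups overlapped here too, with a log2 change of -0.07 and an interval of -0.49 to 0.35 (adjusted p = 0.856).

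Chac1, a glutathione-degrading enzyme, had the log2 change furthest from 0 of the 48 members, at -1.21, but also the largest SE, 0.48 (adjusted p = 0.130). It measured 0.17 log2 CPM in the lowest KO library, 1.66 in the median one and 2.45 in the highest. WT replicates 1 to 5 held 3.41, 2.82, 3.34, 1.00 and 3.06, so that WT replicate 4 lay inside the KO range and the other 4 lay above it. With WT replicate 4 left out it stood at -1.64 (adjusted p = 0.0262). Other omissions moved it away from a call: it had -1.13 without WT replicate 5 (limma, adjusted p = 0.225) and -0.99 without KO replicate 7 (0.182). Sesn2, a stress-induced inhibitor of mTORC1 signalling, stood at -0.43 in all 12 libraries (SE 0.18, adjusted p = 0.145), and also passed without WT replicate 4 (adjusted p = 0.0336). Without WT replicate 5, its highest library, Sesn2 had -0.34 (limma, adjusted p = 0.306).

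Atf5, a relative of Atf4, stood at -0.27 (log2 change, SE 0.10, adjusted p = 0.101), and passed without KO replicate 2 (0.0462). Without KO replicate 4 Atf5 had -0.21 (limma, adjusted p = 0.158). Ppp1r15b, a regulatory subunit of the eIF2alpha phosphatase, had -0.22 (SE 0.10, adjusted p = 0.160). The pseudokinase Trib3, shown above for its CARE, had -0.49 (SE 0.22, adjusted p = 0.169), or -0.34 without WT replicate 5 (limma, adjusted p = 0.344). Ppp1r15a, the stress-induced phosphatase subunit, had 0.11. The mean deviation of the 10 genes from their WT mean ran from -0.73 to -0.12 log2 CPM in KO libraries and from -0.28 to 0.10 in WT libraries, with KO replicate 4 the lowest and 3 of 7 KO libraries below all WT libraries.

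The wider set of Atf4 targets, 32 measured of 35 listed and none of them a member, gave more calls. The list was chosen with earlier results of these data known, so its shares describe it and are no test. Of these 32 genes 15 fell (46.9%, against 4.52% of all genes), 1 rose and 16 did not pass. The median log2 change was -0.45, between -0.49 and -0.39 without any 1 library. Aldh18a1, the entry enzyme of proline synthesis, fell with a log2 change of -0.69 (adjusted p = 0.00188, SE 0.10), and Phgdh, the entry enzyme of serine synthesis, with one of -0.88 (adjusted p = 0.00228, SE 0.13). The gene that rose was Atf3, a stress-induced factor that other signals also raise, by 2.10 (log2 change, SE 0.31, adjusted p = 0.00265). Its level was low, at 1.76 ± 0.60 log2 CPM in KO (SD, n = 7) and -0.34 ± 0.59 in WT (SD, n = 5). Of the other 13 genes that fell, 8 kept their call when any 1 library was left out, with log2 changes between -1.44 and -0.41. They were Shmt2, Gpt2, Psat1, Cth, Aldh1l2 and Pycr1, enzymes of amino acid and one-carbon metabolism, the amino acid transporter Slc1a4 and the alanyl-tRNA synthetase Aars. The calls of Slc7a1, Mars, Eif4ebp1, Nupr1 and Slc7a11 each ended without any 1 of at least 3 libraries, at an adjusted p of up to 0.118. These 13 genes were named after their values were seen. For 10 of the 32 genes every KO library was under every WT library, against 2.74% of all genes.

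The mean deviation of the 32 targets ran from -0.76 to -0.20 log2 CPM in KO libraries and from -0.16 to 0.10 in WT libraries, without overlap. KO replicate 4 was the lowest library in 20 of the 32. The number called lower was between 10 and 18 without any 1 library, 6 in day 10 libraries alone and 6 with the muscle marker level as a covariate. It was 0 with the macrophage or the basal marker level. Over all genes 535 were called lower in the main fit. That count also fell, to 104 in day 10 libraries alone, 99 with the muscle level, 3 with the macrophage level and 4 with the basal level. Those 2 marker lists were higher in KO (4 of 12 and 6 of 10 called), and their part in these changes was not tested further.

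**Figure D4:**
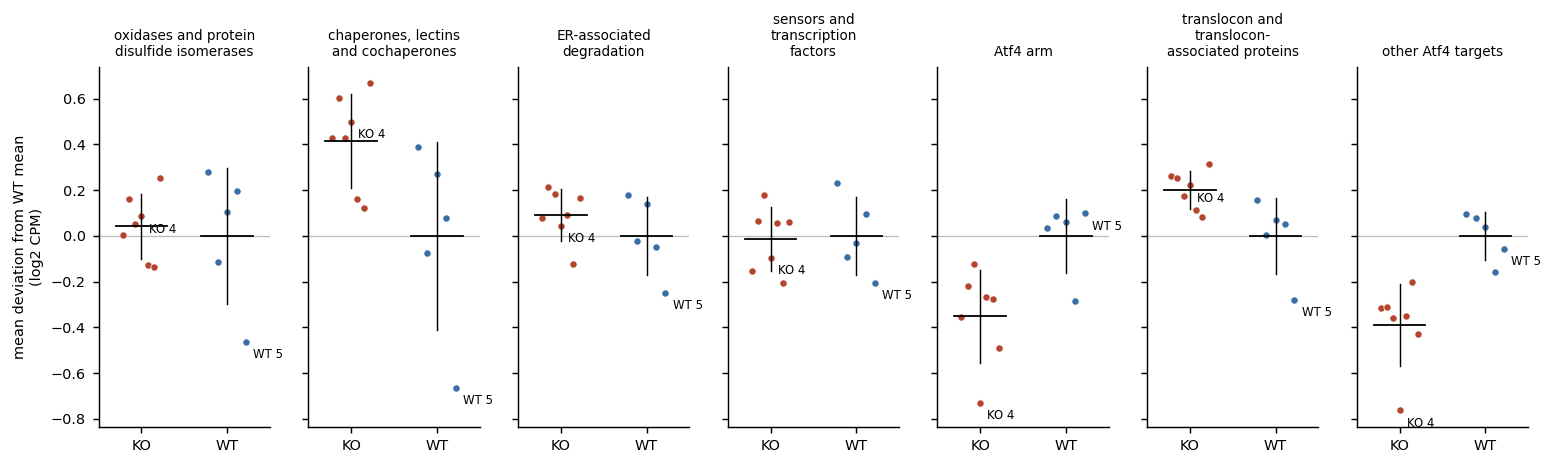
Mean deviation from the WT mean (log2 CPM) of the genes of each role and of 32 other Atf4 targets in the KO (red, left) and WT (blue, right) libraries, with the group mean (horizontal bar) and SD (vertical bar). The chaperones run from 0.12 to 0.67 in KO and from -0.67 to 0.39 in WT, and the other Atf4 targets do not overlap between the groups.

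At the entry to the ER, the translocon and its associated complex gave 1 higher (16.7%, against 4.84% of all genes) and 0 lower of 6. Sec61b, the beta subunit of the protein-conducting channel, measured 4.54 log2 CPM in the lowest KO library, 4.60 in the median one and 4.85 in the highest. WT replicates 1 to 5 held 4.48, 4.50, 4.24, 4.23 and 4.25. Every KO library exceeded every WT library, as for 2.69% of all genes. The call at 0.30 (log2 change, SE 0.07, adjusted p = 0.0245) was lost when leaving out WT replicate 3 (0.0618), WT replicate 4 (0.0563) or WT replicate 5 (0.0609).

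Sec61a1, the pore-forming subunit, measured 6.26 log2 CPM in the lowest KO library, 6.58 in the median one and 6.73 in the highest, and 6.63, 6.48, 6.59, 6.38 and 5.97 in WT replicates 1 to 5. The groups overlapped, with a log2 change of 0.13 and a 95% interval of -0.12 to 0.37 (adjusted p = 0.519), and 0.02 without WT replicate 5, the lowest of the 12. The subunits of the translocon-associated complex, which helps some signal sequences enter, did not pass. Ssr1 had 0.32 (SE 0.10, adjusted p = 0.0681), or 0.33 with lactation day as a covariate (adjusted p = 0.0433). It had 0.22 without WT replicate 5 (limma, adjusted p = 0.155). Ssr3 had 0.30 (SE 0.12, adjusted p = 0.114) and Ssr2 0.20 (SE 0.10, adjusted p = 0.195), while Ssr4 had -0.03. Without WT replicate 5 Ssr3 had 0.19, Ssr2 0.11 and Ssr4 -0.02. The median of the 6 genes was 0.25, and 0.15 with WT replicate 5 left out.

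Of 66 genes of steps next to the translocon 3 were called (4.55%), against 9.36% of all genes. Among 13 genes of signal peptide recognition and cleavage 1 rose, the signal peptidase subunit Sec11a (log2 change 0.42, SE 0.09, adjusted p = 0.0135), and 0 fell. Among 17 other translocation genes 0 rose and 1 fell, Sec62 (-0.20, SE 0.06, adjusted p = 0.0492), whose call ended on leaving out any 1 library other than KO replicate 6 or WT replicate 3, at up to 0.109. None of 17 genes of the oligosaccharyltransferase and of glycan trimming was called by limma. An unadjusted p under 0.05 was found for 5 of them, and for 3145 of all 11834 genes. Ddost, a subunit of the transferase, came nearest at 0.34 (SE 0.10, adjusted p = 0.0534), and passed without KO replicate 5 or KO replicate 6. Leaving out 1 library gave Ddost an adjusted p of up to 0.122 in limma. Of 19 genes of the COPII coat and of ER export 0 rose and 1 fell, Mia3, which loads bulky cargo at ER exit sites. It averaged 6.30 ± 0.19 log2 CPM in KO (SD, n = 7) and 6.83 ± 0.08 in WT (SD, n = 5), with no overlap (log2 change -0.53, SE 0.09, adjusted p = 0.0038).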

How the data were processed

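PolyA RNA of 12 glands was sequenced in pairs from TruSeq mRNA libraries, per the labels. The submitters' processing notes name STAR 2.5.2b, RSEM 1.3.0, Trimmomatic 0.33, bcl2fastq 2.17 and limma 3.34.5, and the builds mm10 and hg19 without a role. The annotation, the strand of counting and the gene filter are not given in the sources used. In the deposited table each of 11834 genes has log2 CPM per library, already quantile-normalized as its values show, which hides shifts common to all genes. Its other columns are the authors' means and SDs, signed fold and log2 fold change, a score (the moderated t statistic) and p-values, raw and adjusted. No counts were given, so count models were not used, and depth was estimated roughly from the step between neighbouring CPM values, with no counting interval.

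The log2 CPM were fitted by genotype with limma 3.58.1 (R 4.3.3; eBayes with trend and robust), two-sided, with Benjamini-Hochberg adjustment over all 11834 genes. SE and 95% intervals are those of the fit. The p-values measure the spread between mice. The 48 members and the other lists were chosen with earlier results of these data known. Named genes are Btn1a1, every called member, up to 4 uncalled members per role by smallest adjusted p plus Hspa5, Xbp1, Atf4, Ddit3, Ero1l and Sec61a1, and up to 3 genes per other list. Prdx4, Vkorc1 and 13 of the other Atf4 targets go beyond that rule and were named after their values were seen, and the remaining members are named to account for all. A list's deviation in a library is the mean of log2 CPM minus the WT mean. Alternatives were lactation day as a covariate, day 10 alone, the replicate number as a block, other normalizations, log2(CPM + 1), a mean of at least 1 log2 CPM, other eBayes settings, library weights, the authors' statistics, the muscle level and leaving out each library. Macrophage and basal levels as covariates, and all alternatives for genes outside the members except Btn1a1, were added after seeing the data. Gene coordinates and promoters are RefSeq's (GRCm38.p6, the same build as mm10), matched by symbol or synonym. Exon lengths are from GENCODE M21, merged over all annotated exons of a gene. The fit was tested on simulated data with independent normal noise, where it recovered 82 of 100 genes given a log2 change of 1. Of 100 given a change of 0.5 it recovered 40, so most changes of that size went without a call. False calls numbered 4 of 126. Figures were drawn in Python 3.11.15 with matplotlib 3.10.9.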

Additional observations from a re-analysis of the deposited data

Results flagged for a closer look

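In 6 groups a single library lay far from the others of their group by Dixon's ratio, among 98 groups examined, and a few such values arise by chance at the 95% level. Dnajb9 measured 3.88 log2 CPM in KO replicate 6, against 4.48 to 4.85 in the other KO libraries. Chac1 measured 1.00 in WT replicate 4, against 2.82 to 3.41 in the other WT libraries, and Creld2 measured 1.90 in WT replicate 5, against 2.69 to 2.99. Ssr2 measured 6.12 in WT replicate 5, against 6.55 to 6.64 in the other WT libraries, and Ssr4 measured 7.40 in KO replicate 4, against 7.71 to 7.88 in the other KO libraries. Btn1a1 measured 11.23 in WT replicate 3, while the other 4 WT libraries shared the value 11.03, as quantile normalization gives 1 value to each rank.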

How the results depend on the processing

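No member turned its direction in a call, and Ero1lb was called in all 27 alternatives. Leaving out 1 library gave between 559 and 1327 calls over all genes (316 to 670 higher, 243 to 657 lower), between 3 and 8 members (1 to 5 higher, 1 to 3 lower) and between 10 and 18 other Atf4 targets lower. Day 10 libraries alone gave 268 genes (164 higher, 104 lower), 1 member (0 higher, 1 lower) and 6 Atf4 targets. The muscle covariate gave 280 genes (181 higher, 99 lower), 2 members (1 higher, 1 lower) and 6 targets. The macrophage covariate gave 7 genes (4 higher, 3 lower), 1 member (0 higher, 1 lower) and 0 targets, and the basal covariate 13 genes (9 higher, 4 lower), 1 member (0 higher, 1 lower) and 0 targets; the cause of these losses was not tested. These last 2 covariates were chosen after seeing the data. The other alternatives without a block kept each count within 1.5 times. Cyclic loess gave 653 genes higher and 481 lower, and the authors' statistics 539 higher and 602 lower, against 573 and 535. Calls ended in 12 of 27 alternatives for Asns and Edem1, 9 for Sec61b, 8 for Vldlr, 6 for Sdf2l1 and 3 for Dnajb11.

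Replicate numbers did not pair the libraries: deviations of same-numbered libraries correlated between -0.17 and 0.21, and 2 of 5 KO libraries correlated best with their own number. With the replicate number as a block 8 members were called, 3 higher and 5 lower, adding Pdia6, Trib3 and Chac1 and losing Edem1 and Sec61b, with 1090 genes in 10 libraries and 1083 in all 12. The table came filtered, so no unfiltered fit was run. Depth limits Ddit3, Chac1 and Pdia5 most, as the lowest members.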

Other observations

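Levels of the members were set beside each other per kilobase of exon, on the log2 CPM scale. The length used merges all annotated exons of a gene. It can exceed the length of the main transcript, so the ranks below depend on it and are rough. P4hb stood highest, at 7.36 in KO and 7.26 in WT glands, followed by Xbp1 at 6.89 in KO and 6.87 in WT, and by Ssr4 at 6.10 in KO and 6.13 in WT. Calr measured 6.21 in KO and 5.76 in WT, and Hspa5 6.14 in KO and 5.75 in WT, so that Calr and Hspa5 lay above Ssr4 in KO and below it in WT. None of these 5 genes was called. The lowest member was Pdia5, at -1.21 in KO and -1.29 in WT, below Ern1 (-0.04 in KO, 0.11 in WT) and Ddit3 (0.03 in KO, 0.10 in WT). Ero1lb, at 0.27 in KO and 1.44 in WT, lay near Sesn2 (0.26) and above Vldlr (0.18) in KO glands, but above both in WT glands (0.69 each).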
